A study of Homo sapiens with 8 samples.

Results

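The genes described here were 10 members of the TGF-beta and BMP signalling pathways, out of 20136 protein-coding genes in the annotation: the ligands TGFB1, TGFB2, BMP2 and BMP4, the receptors TGFBR1 and TGFBR2, the signal transducer SMAD3, the inhibitory SMAD7 and the target genes ID1 and ID2. They were chosen by name for their place in the pathway, with earlier results of these data known. Shares set beside those of all genes or regions are therefore descriptive. For each gene, the CUT&Tag peaks of H3K23su and H3K27ac were read within 2 kb of the transcription start site (TSS), in the gene body and in the 100 kb on either side, which together are called the locus of the gene. The 10 loci held 295 of 122500 H3K23su regions and 273 of 133786 H3K27ac regions.

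TGF-beta and BMP ligands bind pairs of type I and type II serine/threonine kinase receptors, which phosphorylate receptor SMAD proteins. These enter the nucleus with SMAD4 and regulate target genes, among them SMAD7, which feeds back on the receptors, and the ID genes, which encode inhibitors of basic helix-loop-helix transcription factors. In the intestine, BMP signalling is known for restraining stem cells and promoting differentiation, and TGF-beta for its growth arrest of epithelial cells, a response that many colorectal tumours have lost.

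The study profiled H3K23su (succinylation of lysine 23 of histone H3) and H3K27ac (acetylation of lysine 27, a mark of active promoters and enhancers) in the human colon cancer line HCT15. Parental cells (HCT15-Pa), labelled as treated with DMSO, were set against 5-FU-resistant cells (HCT15-FR), labelled as treated with 20 μg/mL 5-FU. 5-FU is a pyrimidine analogue that blocks thymidylate synthase. There were 2 libraries per line and mark, 8 in all. HCT15-FR cells were kept under the drug in culture and were moved to medium without it before the experiments, so the comparison is between a resistant line after drug withdrawal and its parental line. Each side of the comparison was a single cell line, and it is not stated whether the resistant line derived from 1 clone. The replicate libraries are not described as separate cultures, so the p-values measure only the spread between libraries.

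The lists held between 65364 and 68365 H3K23su peaks and between 70600 and 76676 H3K27ac peaks per library. Peaks covered 33.3 ± 0.368 Mb (SD, n = 2) in HCT15-Pa and 39.7 ± 0.467 Mb in HCT15-FR for H3K23su, and 39.2 ± 0.515 Mb and 46.5 ± 0.220 Mb for H3K27ac, a ratio of 1.19 in both marks. The lists hold no read counts, so the depth behind a peak is unknown, and a gene without a listed peak is one where no peak passed the calling threshold. Replicate lists shared between 42.6% and 57.0% of the bases covered by either list. All 6 epithelial and intestinal markers examined (CDH1, EPCAM, KRT8, KRT18, CDX2 and VIL1) had an H3K27ac peak within 2 kb of the TSS in the 4 libraries, and PTPRC, CD3E, COL1A2 and PDGFRB had none in any library. COL1A1, a fibroblast marker, had one in 4 libraries, and CDH5, an endothelial marker, in 1.

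Within each mark, peaks from the 4 lists were joined wherever they met, and each joined stretch is called a region. A region found in the 2 HCT15-FR lists but in no HCT15-Pa list is called FR-only, the reverse is called Pa-only, and a region found in all 4 lists is called shared. The sequences below are shown because they come from H3K23su regions that were FR-only or Pa-only and overlapped an H3K27ac region of the same class. Of 13 such regions that did not overlap a UTR, 6 of the 8 that ranked highest by peak score are given by their central 300 bases, and the 300 bases before the TSS of TGFB2 were added after its values were seen. The SMAD7 window at 121.5 kb lies wholly outside the H3K27ac region that its H3K23su region overlapped, the one at 72.2 kb has 161 of its bases within it, and the other 5 windows lie wholly within theirs. All are on the plus strand of GRCh37, and capitals mark matches on either strand to the AP-1 motif TGANTCA or the KLF motif GGGNGTGG.
TGFB2, 300 bases before the TSS, Pa-only, chr1:218518378-218518677: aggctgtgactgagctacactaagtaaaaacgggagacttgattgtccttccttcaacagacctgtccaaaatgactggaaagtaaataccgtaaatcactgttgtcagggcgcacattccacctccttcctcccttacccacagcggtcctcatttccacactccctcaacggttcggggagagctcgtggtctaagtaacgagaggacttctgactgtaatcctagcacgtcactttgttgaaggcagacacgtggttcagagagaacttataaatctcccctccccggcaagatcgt
SMAD3, 69.5 kb upstream, FR-only, chr15:67286480-67286779: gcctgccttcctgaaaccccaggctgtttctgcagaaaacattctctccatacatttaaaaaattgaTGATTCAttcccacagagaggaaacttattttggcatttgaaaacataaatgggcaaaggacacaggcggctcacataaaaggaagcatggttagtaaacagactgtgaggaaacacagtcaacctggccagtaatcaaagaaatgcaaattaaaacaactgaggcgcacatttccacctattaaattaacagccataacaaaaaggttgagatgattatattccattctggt
TGFBR2, 88.5 kb upstream, FR-only, chr3:30559425-30559724: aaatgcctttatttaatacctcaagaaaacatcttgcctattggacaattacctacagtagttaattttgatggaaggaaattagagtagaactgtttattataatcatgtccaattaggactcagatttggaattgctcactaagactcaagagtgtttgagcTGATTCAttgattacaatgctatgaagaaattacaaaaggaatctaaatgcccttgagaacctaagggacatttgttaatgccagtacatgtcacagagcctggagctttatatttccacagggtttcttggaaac
BMP4, 12.8 kb upstream, FR-only, chr14:54438172-54438471: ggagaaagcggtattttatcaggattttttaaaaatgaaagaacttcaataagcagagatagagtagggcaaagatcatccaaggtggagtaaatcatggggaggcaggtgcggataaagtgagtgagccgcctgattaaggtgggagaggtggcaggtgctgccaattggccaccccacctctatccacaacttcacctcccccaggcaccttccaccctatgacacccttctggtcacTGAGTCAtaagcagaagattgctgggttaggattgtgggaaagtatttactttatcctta
SMAD7, 121.5 kb downstream of the TSS, FR-only, chr18:46355660-46355959: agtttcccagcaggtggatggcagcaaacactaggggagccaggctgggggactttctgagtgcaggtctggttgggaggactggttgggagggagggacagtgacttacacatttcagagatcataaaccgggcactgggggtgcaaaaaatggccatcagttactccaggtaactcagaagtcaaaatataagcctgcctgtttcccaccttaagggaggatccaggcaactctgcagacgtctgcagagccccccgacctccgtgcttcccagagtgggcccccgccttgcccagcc
SMAD7, 123.1 kb downstream of the TSS, FR-only, chr18:46354095-46354394: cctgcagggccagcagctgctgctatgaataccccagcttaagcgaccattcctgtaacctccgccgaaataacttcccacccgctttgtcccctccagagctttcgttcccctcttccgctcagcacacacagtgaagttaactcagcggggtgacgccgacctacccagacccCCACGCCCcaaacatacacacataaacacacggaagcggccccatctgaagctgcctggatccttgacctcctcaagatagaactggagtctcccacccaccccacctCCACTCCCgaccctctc
SMAD7, 72.2 kb downstream of the TSS, Pa-only, chr18:46405036-46405335: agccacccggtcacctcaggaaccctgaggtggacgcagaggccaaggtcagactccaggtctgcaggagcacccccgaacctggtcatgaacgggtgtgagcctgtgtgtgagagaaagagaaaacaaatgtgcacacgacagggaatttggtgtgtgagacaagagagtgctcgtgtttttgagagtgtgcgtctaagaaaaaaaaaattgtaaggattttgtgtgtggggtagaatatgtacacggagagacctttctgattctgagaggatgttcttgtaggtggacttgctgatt

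An AP-1 match was found in 3 of these 6 windows, those of SMAD3, TGFBR2 (88.5 kb upstream) and BMP4. In the central 300 bases of all 78764 H3K23su regions of that length or longer, 14.5% held one. The KLF motif was found in 1 of the 6 windows, that of SMAD7 (123.1 kb downstream), against 15.4% of regions. The short SMAD-binding letters CAGAC, left in lower case above, occurred in 4 of the 6 windows and also upstream of TGFB2, against 52.3% of regions. The BMP-type SMAD1/5 motif GGCGCC occurred in none of the 7 windows, against 8.20% of regions. These are matches of letters, and none of the matched stretches of different motifs overlapped.

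At the start sites, most of the 10 genes were marked in both lines. The exceptions were TGFB2 in both marks and ID2 in H3K23su, which had no peak in HCT15-Pa replicate 1. A peak lay within 2 kb of the TSS in all 4 libraries for 8 of the 10 genes in H3K23su and for 9 of 10 in H3K27ac, where 52.5% and 57% of all protein-coding genes had one. TGFB2 alone had a peak there in each HCT15-Pa list and in no HCT15-FR list, and it was so for both marks. Over all coding genes, 1.63% had this pattern in H3K23su, 2.09% in H3K27ac and 0.705% in both. No member had the reverse pattern at the 5′ end of its gene record, which 1.9% of coding genes had in H3K23su and 1.47% in H3K27ac, but ID2 had it in H3K23su at its canonical TSS.

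**Figure D1:**
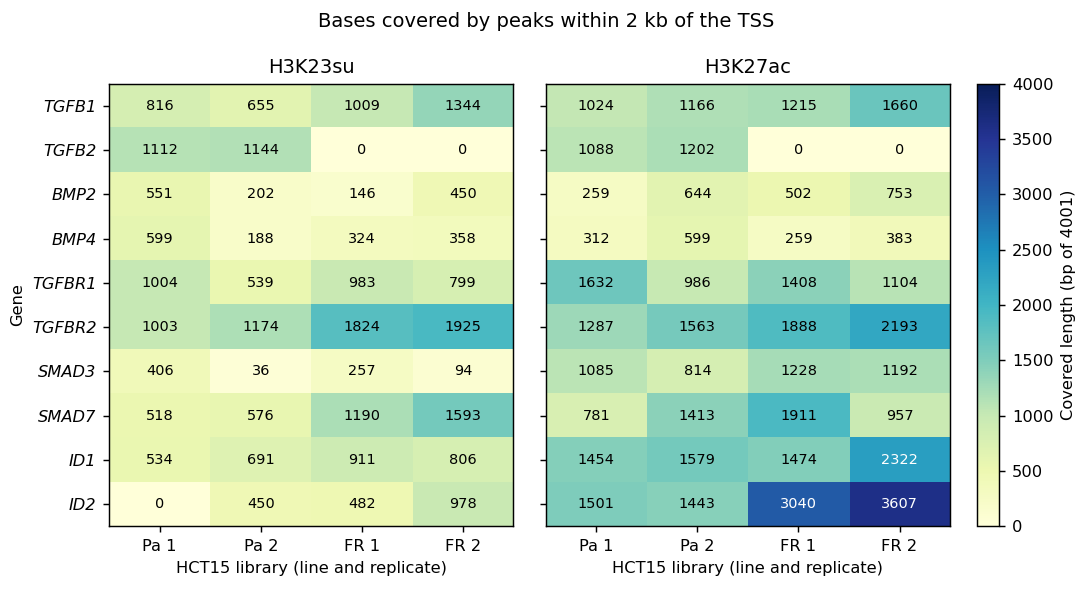
Bases covered by peaks within 2 kb of the TSS (colour and number, bp) for the 10 genes in the 4 libraries of each mark, with 2 HCT15-Pa and 2 HCT15-FR libraries per panel. TGFB2 is at 0 in all 4 HCT15-FR libraries and between 1088 and 1202 bp in the HCT15-Pa libraries, and the ID2 window holds 3040 and 3607 bp of H3K27ac in HCT15-FR against 1501 and 1443 bp in HCT15-Pa.

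TGFB2 encodes the ligand TGF-beta 2. Its Pa-only H3K23su region, at chr1:218518278-218519421 on hg19, spanned the TSS and the start of the 5′ UTR, and the Pa-only H3K27ac region at chr1:218518293-218519494 overlapped it. H3K23su peaks covered 1112 and 1144 bp within 2 kb of the TSS in the HCT15-Pa libraries, with top scores of 5.29 and 5.75 (the authors' −log10 P). H3K27ac peaks covered 1088 and 1202 bp there, with scores of 4.65 and 5.47. All 4 peaks scored above the median of their own lists, and the weaker peak of the pair stood at percentile 75.2 for H3K23su and 57.7 for H3K27ac. The start site held the only Pa-only region of the locus in either mark. In the introns, regions 32.0 kb and 35.3 kb from the TSS were shared by the 4 libraries in both marks, and the H3K23su peak scores of the farther one were 7.81 and 5.53 in HCT15-Pa and 5.55 and 6.48 in HCT15-FR. Covered length in the gene body beyond the start-site window was higher in HCT15-FR, without overlap in these unscaled values. H3K23su covered 1644 and 1923 bp there in HCT15-Pa and 3167 and 2977 bp in HCT15-FR. H3K27ac covered 1011 and 1475 bp against 2614 and 2438 bp. A FR-only H3K23su region lay 8.6 kb upstream, in a UTR of the neighbouring RRP15 (scores 4.49 and 4.21), with no H3K27ac region over it. Over the whole locus the H3K23su covered length was 5566 and 5259 bp in HCT15-Pa and 6387 and 6244 bp in HCT15-FR, and for H3K27ac, or once either mark was scaled by the length of its list, the lines overlapped.

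TGFB1, the ligand TGF-beta 1, kept its peaks at the start site in both lines. Within 2 kb of the TSS, H3K23su covered 816 and 655 bp in HCT15-Pa and 1009 and 1344 bp in HCT15-FR, and H3K27ac covered 1024 and 1166 bp against 1215 and 1660 bp. The values of HCT15-FR were the higher ones in both marks, without overlap. Covered lengths at the start sites are unscaled here and below, and whole lists were 1.19 times longer in HCT15-FR. The share of all coding genes whose start-site lengths separated this way was not computed. The locus is crowded, with 11 other coding TSSs within it, and its line-specific regions lay outside the gene. The FR-only H3K23su region, at chr19:41803959-41804596, was in an intron of HNRNPUL1 (scores 6.43 and 4.34), and the Pa-only H3K23su regions lay in DMAC2 and TMEM91.

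BMP2 and BMP4, both BMP ligands, did not separate the lines at the start site. Within 2 kb of the TSS, the H3K23su covered length of BMP2 was 551 and 202 bp in HCT15-Pa and 146 and 450 bp in HCT15-FR, and that of BMP4 was 599 and 188 bp against 324 and 358 bp. Around the canonical start of BMP4, further in, H3K23su covered 1472 and 932 bp in HCT15-Pa and 974 and 1013 bp in HCT15-FR. The lines overlapped for both genes and in both marks, and at either start of BMP4. BMP2 had no line-specific H3K23su region in its locus, but FR-only H3K27ac regions lay 76.4 kb upstream (scores 4.51 and 4.41) and 16.7 kb downstream of the TSS (3.97 and 5.73). BMP4 had 5 FR-only H3K23su regions, and 2 of them, 12.8 kb upstream at chr14:54437908-54438736 and 20.0 kb downstream at chr14:54405226-54405682, were also FR-only in H3K27ac. The scores of the upstream region were 3.84 and 4.33 in H3K23su and 3.81 and 4.37 in H3K27ac. No other coding TSS lies within either locus. Of the 4 FR-only H3K27ac regions of BMP4, the highest scores were 15.5 kb downstream (6.31 and 6.89) and 68.0 kb upstream (7.59 and 5.79). BMP4 also had Pa-only regions, 2 in H3K23su, 87.7 kb and 75.8 kb downstream, and 1 in H3K27ac, 42.0 kb upstream.

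TGFBR1 encodes the type I receptor of TGF-beta, and TGFBR2 the type II receptor that binds the ligand first. For TGFBR1 the lines overlapped at the start site in both marks, with 1004 and 539 bp of H3K23su in HCT15-Pa and 983 and 799 bp in HCT15-FR. The top H3K23su scores were 7.18 and 8.35 in HCT15-Pa and 8.95 and 10.2 in HCT15-FR. Within their own lists these peaks stood at percentiles 93.5 and 96.6 against 94.9 and 97.3, which overlapped. In its introns, a region 38.5 kb from the TSS, at chr9:101904354-101905272, was FR-only in H3K23su (5.47 and 4.40) and in H3K27ac (4.78 and 3.46). A Pa-only H3K23su region (3.55 and 4.05) lay 34.7 kb from the TSS with no H3K27ac region.

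TGFBR2 had more covered bases at the start site in HCT15-FR. H3K23su covered 1003 and 1174 bp in HCT15-Pa and 1824 and 1925 bp in HCT15-FR, and H3K27ac covered 1287 and 1563 bp against 1888 and 2193 bp. The groups did not overlap in either mark in these unscaled values. The top H3K27ac scores were 8.69 and 9.07 in HCT15-Pa and 12.4 and 11.6 in HCT15-FR. Within their own lists these peaks stood at percentiles 88.3 and 88.9 against 92.1 and 91.0. The top H3K23su scores were 8.63 and 7.06 in HCT15-Pa and 7.58 and 5.34 in HCT15-FR. Their percentiles were 97.4 and 92.5 against 89.9 and 67.4, so the wider H3K23su peaks of HCT15-FR ranked lower, without overlap. All 3 FR-only H3K23su regions of the locus were also FR-only in H3K27ac. They lay 88.5 kb upstream between genes (4.08 and 4.51 in H3K23su, 6.02 and 6.88 in H3K27ac), and in introns 60.3 kb (5.95 and 4.42, 5.05 and 5.26) and 14.2 kb downstream of the TSS (3.45 and 3.92, 3.99 and 3.84). A further 3 FR-only H3K27ac regions lay at 42.2, 75.4 and 143.0 kb, and the locus had 1 Pa-only H3K23su region, in an intron of GADL1. No other coding TSS lies in the TGFBR2 locus.

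**Figure D2:**
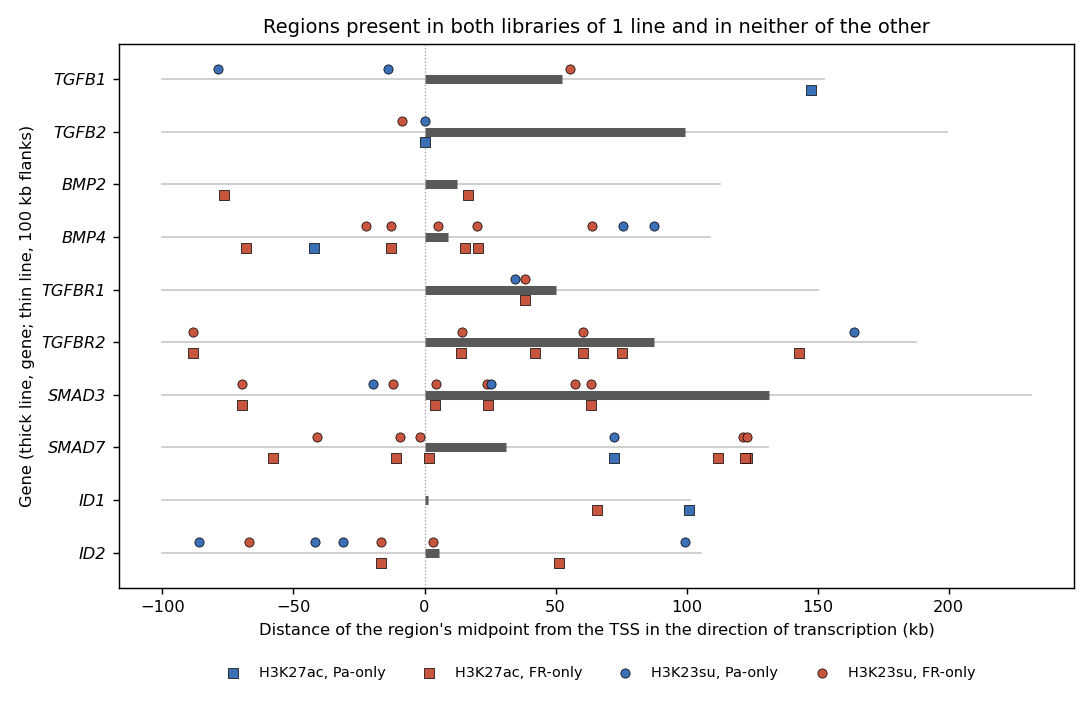
Midpoints of the FR-only (red) and Pa-only (blue) regions of H3K23su (circles) and H3K27ac (squares) for the 10 genes, by distance from the TSS in kb in the direction of transcription, with thick lines for the gene and thin lines for the flanks of 100 kb. SMAD3 has 6 FR-only H3K23su regions, BMP4 and SMAD7 have 5 each, and TGFB2 has Pa-only regions of both marks at its TSS.

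SMAD3 is a receptor SMAD of the TGF-beta branch. The first 2 kb around the 5′ end of the gene record held little H3K23su, 406 and 36 bp in HCT15-Pa and 257 and 94 bp in HCT15-FR, and the shared peak sat further in, at the start of the canonical transcript. H3K27ac covered 1085 and 814 bp against 1228 and 1192 bp. SMAD3 had 6 FR-only H3K23su regions, of which 4 were FR-only in H3K27ac too. The one with the highest scores, at chr15:67286184-67287076, was 69.5 kb upstream in an intron of a long noncoding RNA gene (5.12 and 5.25 in H3K23su, 8.36 and 7.42 in H3K27ac). The other 3 lay in introns of SMAD3, 4.6 kb, 23.9 kb and 63.4 kb from the TSS, with H3K23su scores between 3.32 and 4.67. Its 2 Pa-only H3K23su regions, 19.5 kb upstream and 25.2 kb downstream, were not Pa-only in H3K27ac.

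SMAD7, the inhibitory SMAD induced by the pathway, had more H3K23su at the start site in HCT15-FR. H3K23su covered 518 and 576 bp in HCT15-Pa and 1190 and 1593 bp in HCT15-FR, without overlap in these unscaled values. The top scores were 4.19 and 4.15 against 5.01 and 5.83. Within their own lists these peaks stood at percentiles 43.7 and 41.4 against 61.2 and 75.1. H3K27ac covered 781 and 1413 bp against 1911 and 957 bp, which overlapped. A FR-only H3K23su region at 1.8 kb upstream fell within the window, and another at 9.4 kb upstream, chr18:46486057-46487385, had scores of 5.31 and 5.63. In introns of CTIF, 121.5 kb and 123.1 kb downstream, neighbouring regions were FR-only in both marks, the H3K27ac scores of the farther one being 10.1 and 6.97. At 72.2 kb downstream, the region chr18:46404643-46405728 went the other way, with H3K23su scores of 5.89 and 4.71 in HCT15-Pa, and it overlapped a Pa-only H3K27ac region (6.50 and 6.89).

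ID1 and ID2 are targets of BMP signalling. For ID1 both marks had peaks at the start site in all libraries, 534 and 691 bp of H3K23su in HCT15-Pa and 911 and 806 bp in HCT15-FR. ID1 had no line-specific H3K23su region, and its H3K27ac regions of that kind, 1 FR-only and 1 Pa-only, both lay in introns of BCL2L1. For ID2, H3K23su covered 0 and 450 bp in HCT15-Pa and 482 and 978 bp in HCT15-FR. H3K27ac covered 1501 and 1443 bp against 3040 and 3607 bp, the widest window of all members. This window is centred on the 5′ end of the gene record, which ID2-AS1 overlaps, and the peaks there cannot be assigned to ID2 or ID2-AS1. Around the canonical start, 3211 bp further in, H3K23su covered 0 bp in both HCT15-Pa libraries and 305 and 146 bp in HCT15-FR, which is the FR-only pattern, with low scores of 3.36 and 3.32. H3K27ac there covered 0 and 349 bp in HCT15-Pa and 350 and 1006 bp in HCT15-FR.

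The distal ID2 region that was FR-only in both marks lay between genes, 16.5 kb upstream at chr2:8801900-8802969. Its scores were 5.38 and 6.44 in H3K23su and 5.93 and 8.24 in H3K27ac. ID2 also had 4 Pa-only H3K23su regions, more than any other member, none with an H3K27ac region over it. The one whose weaker peak ranked highest, with scores of 5.78 and 5.98, was 41.8 kb upstream at chr2:8776831-8777536. The ID2 locus thus held H3K23su regions of either line, whereas its H3K27ac regions of that kind were both FR-only.

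Counted over the 10 loci, 25 of the 295 H3K23su regions were FR-only (8.47%, against 7.95% of the regions of the genome) and 14 were Pa-only (4.75%, against 5.01%). For H3K27ac, 26 of 273 were FR-only (9.52%, against 9.08%) and 5 were Pa-only (1.83%, against 4.53%). The shares of FR-only regions were close to the background in both marks. By gene, FR-only H3K23su regions were 6 of 53 at SMAD3, 5 of 30 at BMP4, 5 of 43 at SMAD7, 3 of 32 at TGFBR2 and 3 of 25 at ID2. TGFB1 had 1 of 43, TGFB2 1 of 16 and TGFBR1 1 of 12, and none of the 11 regions of BMP2 or the 30 of ID1 was FR-only. Of the 25, 15 lay in the flanks, 9 in gene bodies and 1 within 2 kb of the TSS. For 24 of them the nearest coding TSS was that of the member, as it was for 10 of the 14 Pa-only regions. The BMP2, BMP4, TGFBR2, SMAD7 and ID2 loci hold no other coding TSS, and no background share was computed.

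FR-only regions of the marks partly coincided. Of the 25 FR-only H3K23su regions, 13 (52%) overlapped a FR-only H3K27ac region and none a Pa-only one, where 35.8% of FR-only H3K23su regions of the genome overlapped a FR-only H3K27ac region. Of the 14 Pa-only H3K23su regions, 2 (14.3%, against 19.8%) were also Pa-only in H3K27ac, namely the TGFB2 start site and the SMAD7 region 72.2 kb downstream. Of the 102 shared H3K23su regions, 82 lay over an H3K27ac region that was also shared (80.4%, against 80.3%).

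The covered length of the loci was larger in HCT15-FR. Summed over the 10 genes, H3K23su covered 84808 and 82397 bp in HCT15-Pa and 112153 and 115350 bp in HCT15-FR, a difference of 30149 bp and a ratio of 1.36. H3K27ac covered 110988 and 109472 bp against 148798 and 149931 bp, a difference of 39134.5 bp and a ratio of 1.36. In the exact two-sided permutation test of 2 libraries against 2, p was 0.333 for each sum, which is the smallest this design allows, so no comparison could reach a threshold of 0.05. Both HCT15-FR libraries were above both HCT15-Pa libraries at 9 of 10 loci for H3K23su, all but BMP2, and at 8 of 10 for H3K27ac, all but TGFB2 and ID1. Over all coding loci this was so for 54.8% and 55%, and the reverse for 11.8% and 13.4%, which occurred at no member. Once scaled by the length of the list, it was so at 5 and 6 of the 10 loci, against 30.5% and 26.1% of all coding loci. Because the genes were chosen with earlier results known, an excess over these shares was not tested.

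**Figure D3:**
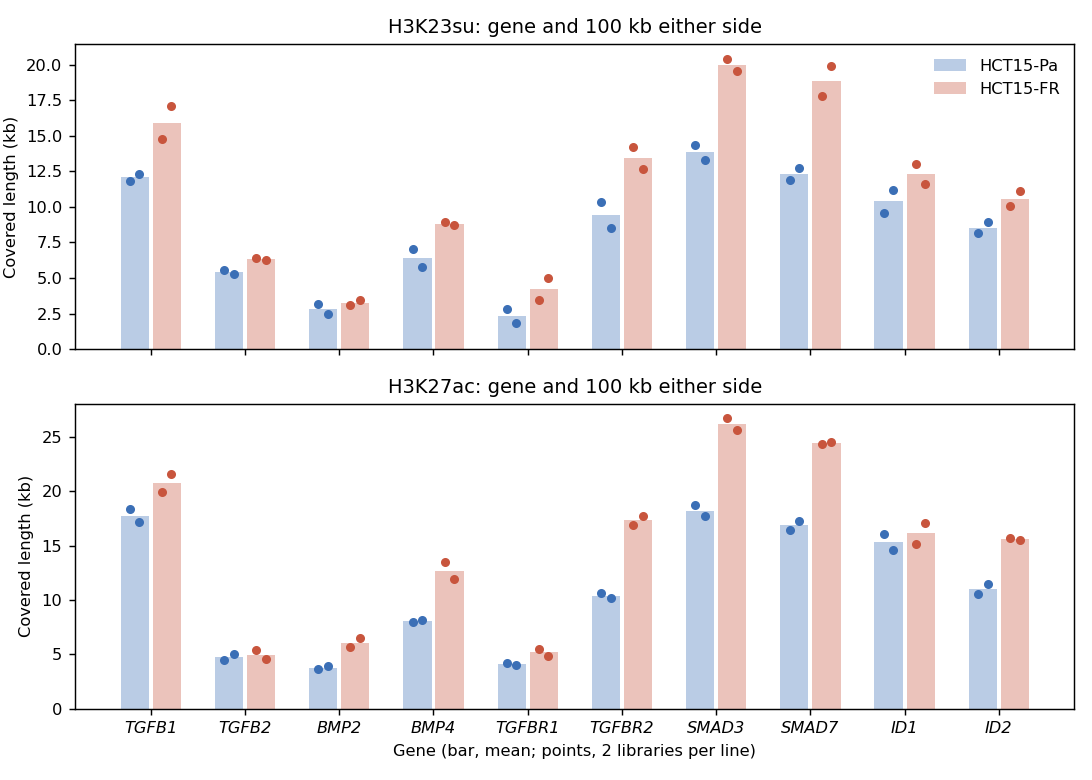
Covered length (kb) of the gene and 100 kb either side for the 10 genes, by mark, with bars for the mean of HCT15-Pa (blue) and HCT15-FR (red) and points for the 2 libraries. The HCT15-FR points lie above the HCT15-Pa points at 9 genes for H3K23su and 8 genes for H3K27ac before scaling, and at 5 and 6 when scaled by the length of each list.

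The SMAD3 locus had 14340 and 13321 bp of H3K23su in HCT15-Pa and 20432 and 19561 bp in HCT15-FR, and the SMAD7 locus 11895 and 12771 bp against 17788 and 19915 bp. For TGFBR1 the H3K23su ratio was 1.82, from 2844 and 1823 bp to 3493 and 5000 bp, and its libraries spread widely. Without HCT15-Pa replicate 2 it was 1.49, below that of SMAD7 at 1.58, and without HCT15-Pa replicate 1 it was 2.33. For TGFBR2 the H3K27ac ratio was 1.67, from 10605 and 10143 bp to 16892 and 17729 bp, and between 1.63 and 1.71 without any 1 library. For BMP2 the marks diverged, with H3K27ac at 3616 and 3899 bp against 5639 and 6548 bp (ratio 1.62) and H3K23su at 3173 and 2471 bp against 3086 and 3474 bp (1.16). With only the stronger 50% of peaks in each list, the BMP2 difference fell from 2336 to 292 bp in H3K27ac. In H3K23su it fell from 458 to 64.5 bp. The difference between the marks was not tested.

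The median ratio over the 10 loci was 1.35 for H3K23su and 1.43 for H3K27ac, beside 1.21 and 1.15 over the coding loci with peaks in HCT15-Pa. Whole lists were longer in HCT15-FR by the ratio of 1.19 given above, and mean peak widths were 507 and 505 bp in HCT15-Pa against 586 and 581 bp in HCT15-FR for H3K23su. Divided by the covered Mb of each list, the summed ratio was 1.14 in both marks. On that scale HCT15-FR stayed above HCT15-Pa without overlap for BMP4, SMAD3, SMAD7, TGFBR1 and TGFBR2 in H3K23su and for BMP2, BMP4, ID2, SMAD3, SMAD7 and TGFBR2 in H3K27ac, while ID1 was lower in HCT15-FR for H3K27ac. Ratios of the whole chromosomes that hold the members also varied, from 1.08 on chromosome 18 (SMAD7) to 1.30 on chromosome 1 (TGFB2) for H3K23su. The SMAD7 locus was 1.42 times its chromosome's ratio and the TGFB2 locus 0.901 times.

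**Figure D4:**
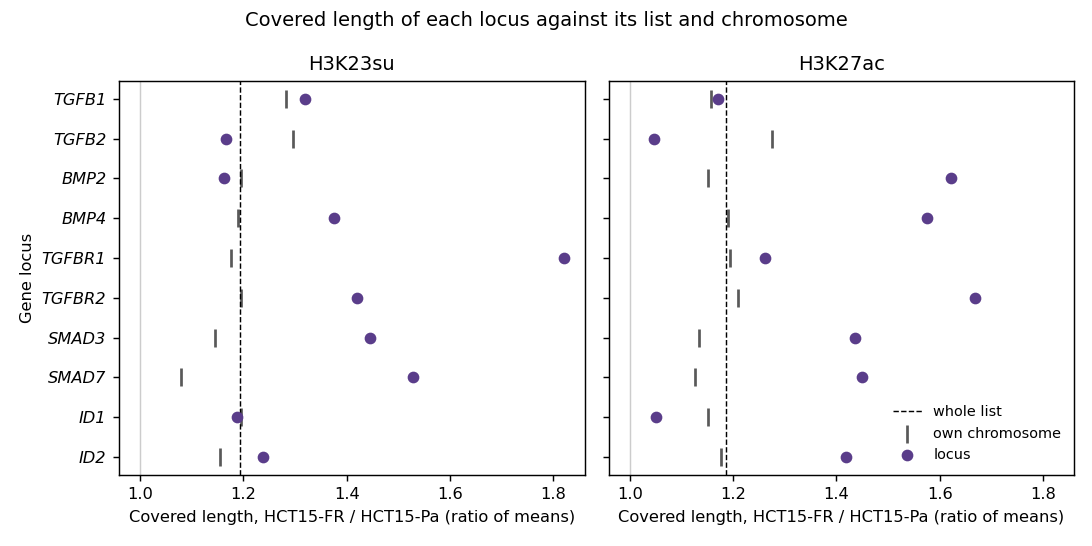
Ratio of mean covered length, HCT15-FR to HCT15-Pa, of each locus (dots), of the chromosome that holds it (ticks) and of the whole list (dashed line, 1.19), by mark. TGFBR1 is at 1.82 for H3K23su and TGFBR2 at 1.67 for H3K27ac. TGFB2 and ID1 lie left of their chromosomes in both marks, and BMP2 does in H3K23su.

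The added length came from widened shared regions as well as from FR-only ones. Of the 30149 bp of H3K23su, shared regions gave 14605.5 bp (48.4%), FR-only regions 12587 bp (41.7%) and the remaining partly present regions 8719 bp, and Pa-only regions entered with -5762.5 bp. For H3K27ac, shared regions gave 19483.5 of 39134.5 bp (49.8%) and FR-only regions 15198.5 bp. The 102 shared H3K23su regions averaged 615 ± 30.6 bp (SD, n = 2) in HCT15-Pa and 758 ± 37.2 bp in HCT15-FR, and 42 were wider in both HCT15-FR libraries than in both HCT15-Pa libraries, with 9 narrower. These were 41.2% and 8.82% of the shared regions, against 37.9% and 10.9% of all shared H3K23su regions of the genome. For H3K27ac, 47 of 115 were wider (40.9%, against 36.7%) and 13 narrower (11.3%, against 12.9%). The widening in these loci was thus near that of the whole lists. At BMP4 the H3K23su difference came mostly from FR-only regions (1983.5 of 2411 bp), and at TGFB1 from shared regions (3300 of 3843 bp). The weaker peaks of the BMP4 FR-only H3K23su regions ranked low, between percentiles 6.31 and 24.3 of their lists. With only the stronger 50% of peaks in each list, the H3K23su difference was 490 bp at BMP4 and 3728.5 bp at TGFB1.

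A list of 40 further pathway genes was read in the same way. A peak lay within 2 kb of the TSS in all 4 libraries for 23 of them in H3K23su and for 26 in H3K27ac, and in no library for 11 and 6. The shares with a peak in all 4, 57.5% and 65%, stood beside 52.5% and 57% of all coding genes. Both HCT15-FR libraries were above both HCT15-Pa libraries at 23 and 29 of the loci (57.5% and 72.5%, against 54.8% and 55%) and below at 7 and 5 (17.5% and 12.5%, against 11.8% and 13.4%). BMPR1B, a type I BMP receptor, had start-site peaks in HCT15-FR alone, covering 799 and 477 bp in H3K23su and 932 and 537 bp in H3K27ac against 0 bp in the HCT15-Pa libraries. SMAD9, a receptor SMAD of the BMP branch, had them in HCT15-Pa alone, 316 and 422 bp in H3K23su and 1024 and 422 bp in H3K27ac. SMAD9 is on chromosome 13, where covered length as a whole was lower in HCT15-FR (ratio 0.864 for H3K23su and 0.888 for H3K27ac). In H3K27ac alone, ACVRL1, a type I receptor, was FR-only (293 and 177 bp), and NOG, which encodes the BMP antagonist noggin, was Pa-only (146 and 640 bp). So were ID4 (303 and 659 bp), another ID gene, and TGFBI (146 and 357 bp), a TGF-beta-induced matrix protein gene.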

How the data were processed

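CUT&Tag for H3K23su and H3K27ac was performed on HCT15-Pa and HCT15-FR cells, 2 libraries per line and mark. The authors aligned reads to hg19 with Bowtie2, filtered them with SAMtools and called peaks in each library with MACS2, and the submitters' processing notes also name deepTools and HOMER 4.10. For H3K27ac their methods describe broad peak calling, and they name no such setting for H3K23su. Widths and covered lengths of the marks may thus differ in how peaks were called. The deposited lists give each peak's position and the authors' −log10 P value, used here to rank peaks within a list. Scores rise with depth, so the printed scores do not measure a difference between lines. The lists hold no counts, so no count model was used and depth is unknown.

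Peaks were merged into regions (1 bp overlap, touching included), and covered bases were counted per window and library in Python 3.11.15 (numpy 2.4.6, pandas 2.3.3, matplotlib 3.10.9). Genes, TSSs (the 5′ end of the gene record) and sequences came from GENCODE release 44 lifted to GRCh37 and that genome, and no chromosome was shorter than its peaks. Lines were compared by exact permutation of 2 against 2 libraries. The merging was tested on simulated peaks. All members were named, with up to 3 regions of each class per locus and mark, further ones where a count is broken down, and other pathway genes where a start-site peak was in 1 line alone. PECAM1 was not analysed here, and 1 leukocyte marker and 2 of the ranked sequence windows are not reported here. The members and lists were chosen with earlier results of these data known. Replicate numbers did not pair the libraries, since replicate differences of the lines correlated at 0.00376 (H3K23su) and -0.00473 (H3K27ac) over 20136 loci. The alternatives were stronger peaks only, equal list lengths, other windows and flanks, wider merging, scaling by list and leaving out each library.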

Additional observations from a re-analysis of the deposited data

How the results depend on the processing

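With 2 libraries per group and no counts, differences in depth between lists could not be removed, and no test could pass 0.05. The summed differences kept their direction in every alternative run, and without 1 library they ranged from 28550.5 to 31747.5 bp for H3K23su and from 38376.5 to 39892.5 bp for H3K27ac. With the replicate block they were 30149 and 39134.5 bp, which equal the unblocked values by construction. The sign-flip p was 0.5, the smallest exact value for 2 pairs, and the numbers were 9 and 8 loci as before. Of 180 alternative values for single loci, 168 kept their direction and 12 reversed. The 180 include the replicate-block values, which equal the main ones by construction and could not reverse. Counts of line-specific regions depended most on the choices. Without 1 library, FR-only regions ranged from 38 to 62 (H3K23su) and 37 to 51 (H3K27ac), Pa-only regions from 16 to 40 and 9 to 32, and regions FR-only in both marks from 13 to 20, since 1 library then stands for its line. FR-only H3K23su and Pa-only H3K27ac counts moved by over 1.5 times without any of their 4 libraries, Pa-only H3K23su without either HCT15-Pa library, FR-only H3K27ac without either HCT15-FR library, and the count for both marks without HCT15-FR H3K23su replicate 1. With the stronger 50% of each list there were 11 FR-only and 12 Pa-only H3K23su regions, so FR-only ones were no longer more numerous. Of the 11, 6 were FR-only in both marks. For H3K27ac there were 23 FR-only and 6 Pa-only regions. HCT15-FR was then above HCT15-Pa without overlap at 6 loci for H3K23su and 7 for H3K27ac. In this setting 4 members had a start-site H3K23su peak in all libraries, and TGFB2 reversed to -692 bp in H3K23su. Asking for 50% of a region to be covered gave 40 FR-only and 9 Pa-only H3K27ac regions. A window of 1 kb left 5 members with H3K23su in all libraries. Flanks of 50 kb gave 8 Pa-only H3K23su, 16 FR-only and 3 Pa-only H3K27ac regions, and BMP2 at -415.5 bp in H3K23su. Equal list lengths put TGFB2 at -106 bp in H3K27ac. Per Mb of list, 5 loci were higher in HCT15-FR without overlap for H3K23su, and reversed differences, in bp per Mb, were -3.60 (TGFB2), -2.09 (BMP2) and -2.06 (ID1) for H3K23su and -5.91 (TGFB1), -14.3 (TGFB2) and -44.9 (ID1) for H3K27ac. Without 1 H3K27ac library, TGFB2 fell to -27.5 bp (HCT15-Pa replicate 1) or -214 bp (HCT15-FR replicate 1) and ID1 to -204 bp (HCT15-FR replicate 2), the highest values being 661 and 1746 bp. Among loci whose lines did not overlap, H3K23su differences moved by over 1.5 times for TGFBR1, to 1159.5 bp without HCT15-FR replicate 2, and for ID1, to 1124 bp without HCT15-Pa replicate 1 and 1258.5 bp without HCT15-FR replicate 1. Beyond what each setting removes, the cause of these shifts was not tested. The canonical transcript's TSS, chosen after seeing the data, gave 8 members with a start-site peak in all libraries for either mark.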
